A study of Mus musculus with 23 samples.

Results

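Small intestine RNA was compared between 2 groups of mice that received gut microbiota from donors given different doses of alginate oligosaccharide (AOS), a chain of sugar acids made from brown algae. The comparison held 6 of the 23 RNA-seq libraries of the series, 3 labelled A100-FMT and 3 labelled A10-FMT, taken by their group and set labels. FMT stands for the transfer of gut microbiota from one animal to another. All libraries came from ICR mice, and the study's methods give male mice that had a single busulfan injection of 40 mg/kg at 3 weeks of age, controls included. The A10-FMT group then received small intestinal contents of donors that had been given AOS at 10 mg/kg, and the A100-FMT group those of donors given 100 mg/kg, once daily by mouth for 1 week and then 1 week of normal keeping before sampling at 5 weeks of age. Con-FMT mice received contents of donors given water, and Sa mice received saline. Donors were dosed for 3 weeks, and their contents were pooled within each donor group of 30 mice. The recipients of a group therefore shared a single inoculum, and the dose cannot be told apart from that pool. The labels divide the libraries into set 1 and set 2, a division they do not explain, and the present comparison lies within set 1. In both sets the names of the A100-FMT samples carry another letter code than those of the other 3 groups, and whatever this code marks cannot be told apart from the donor dose. Nothing in the labels says that the samples came from separate mice, so p-values measure the spread between these samples only.

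The epithelium of the small intestine is renewed from stem cells at the base of the crypts. Their daughters divide in the crypt and then mature into absorptive enterocytes, which climb the villus and carry a brush border of microvilli with digestive enzymes and transporters. Paneth cells stay at the crypt base and secrete antimicrobial proteins, while scattered enteroendocrine cells release hormones in response to food and microbes. Busulfan is an alkylating drug that is toxic to dividing cells.

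In A100-FMT, some genes of Paneth cells, brush-border enzymes, nutrient transporters, fat absorption and enteroendocrine cells were lower than in A10-FMT, and some genes of the molecular clock and of dividing crypt cells were higher. In each of these lists most members did not pass the test. Levels are FPKM, fragments scaled to transcript length and to the library's mapped total, and differences are log2 changes of FPKM with 1 added, A100-FMT minus A10-FMT, so that a negative value means lower in A100-FMT. Of the 11337 genes tested, those whose level averaged 1 FPKM or more across the 23 libraries, 642 (5.66%) passed an adjusted p of 0.05 in limma, 448 higher (3.95%) and 194 lower (1.71%). An unadjusted p under 0.05 was reached by 2624 genes (23.1%). The values of both groups did not overlap for 4136 genes (36.5%), with A100-FMT above A10-FMT for 3187 (28.1%) and below it for 949 (8.37%). Changes upward were many and small, with a median size of 0.31 among the genes called higher against 0.44 among those called lower. A ratio of group means of at least 2 was found for 26 genes in the upward direction (0.229%) and 67 in the downward direction (0.591%).

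The spread that decided these calls came from all 8 groups. A fit to the 6 libraries alone called 0 genes in limma although 3353 had an unadjusted p under 0.05, a fit to the 11 libraries of set 1 called 0 with 1679 such genes, and leaving out A100-FMT library 3 left 27 calls. Without that library the calls of the lists described here fell to 1 of 25 Paneth genes, 0 of 25 brush-border enzymes, 1 of 24 microvillus genes, 2 of 18 amino acid transporters and 0 each for fat absorption, ion transport, detoxification, antioxidant, villus-tip, tight junction, clock, crypt and stem cell genes. All 3 enteroendocrine calls remained. Without the 5 Sa libraries the count rose to 2102, and with the other column that the labels of a Sa sample name it rose to 2292. The direction also leaned on scaling, since trimmed-mean scaling gave 125 higher and 315 lower, quantile normalization 168 and 186, and an adjustment for GC content and transcript length 313 and 552. The median change over all genes tested was 0.076, and 7632 of the 11337 had a higher mean in A100-FMT. A Sa library of set 1 stood apart, with correlations of 0.944 to 0.965 to the other libraries. Genes called lower had shorter transcripts (median 2432 bases) than those called higher (4350 bases) or all tested (3301 bases). The rank correlation across genes of transcript length with a library's deviation from the series median was -0.428 to -0.093 in A10-FMT. In A100-FMT it was -0.191 to 0.232, and its part in the calls was not tested beyond the adjustment. Villin, which marks the epithelial brush border, was at 674 to 914 FPKM in the 6 libraries, and 10 of 14 smooth muscle markers and all 11 markers of enteric neurons and glia stayed below 1 FPKM.

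**Figure D1:**
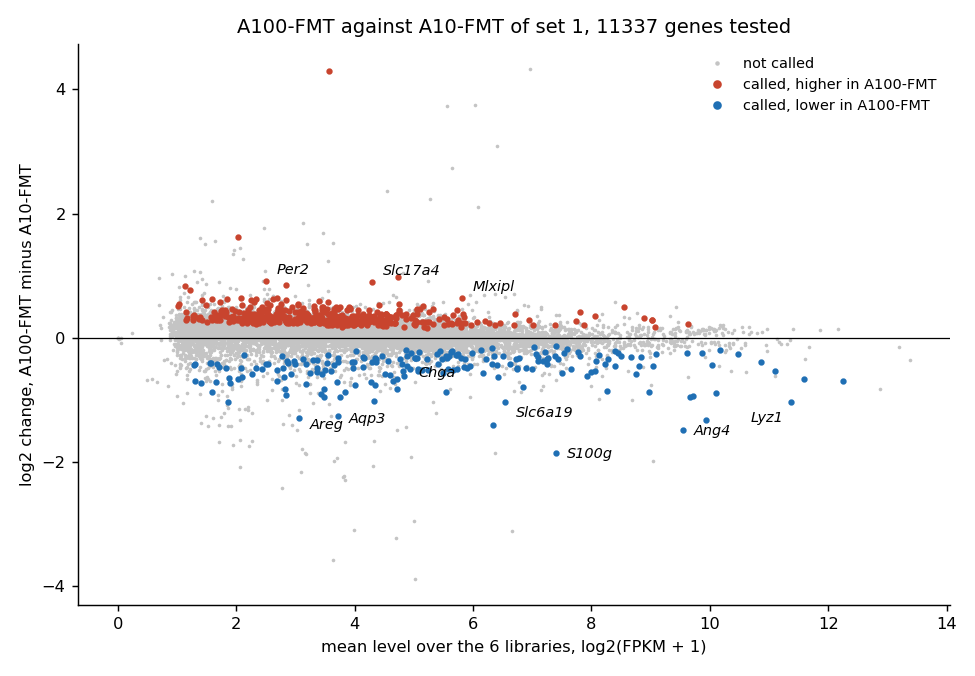
Change between A100-FMT and A10-FMT of set 1 (vertical axis, log2 change of FPKM + 1) against the mean level over the 6 libraries (horizontal axis, log2 of FPKM + 1), 1 point for each of 11337 genes tested. The 448 genes called higher (red) form a dense band of small changes at low and middle levels, while the 194 called lower (blue) spread over all levels and reach Lyz1 and Ang4 among the most abundant genes.

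Several abundant Paneth cell genes were lower in A100-FMT. Of 25 antimicrobial genes tested, from 28 listed, 10 were lower and 0 higher, with a median change of -0.63, and for 14 of them every A100-FMT value lay below every A10-FMT value. The latter held for 8.37% of all genes tested. Quantile normalization left 6 Paneth genes called lower. The other direction, a higher mean in A100-FMT, was seen for 5 members, of which 0 were called. The mean of the list per library, centred over all 23 libraries, was -0.23, 0.18 and -0.48 in A10-FMT. In A100-FMT it was -0.56, -0.96 and 0.12, so that the groups overlapped. Ang4 (NCBI Gene 219033, chromosome 14, 51763892 to 51773590 in GRCm38.p6), a secreted ribonuclease that kills bacteria, stood at 1168, 1397 and 719 FPKM in A10-FMT and at 512, 406 and 257 FPKM in A100-FMT. The highest A100-FMT library was thus below the lowest A10-FMT library, and the change was -1.48 (SE 0.28, adjusted p = 0.0095). Con-FMT and Sa lay with A10-FMT, at means of 1310.0 ± 199.8 (SD, n = 3) and 1260.0 FPKM (n = 2).

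Lyz1 (NCBI Gene 17110, chromosome 10, 117287795 to 117292868), the lysozyme of Paneth cells that cuts bacterial cell walls, gave 3657, 4305 and 2703 FPKM in A10-FMT and 2163, 1610.4 and 1391 FPKM in A100-FMT. Both groups were apart, with a change of -1.04 (SE 0.26, adjusted p = 0.027). Lyz1 shares reads with its close copy Lyz2 in counting, so its level carries that uncertainty. Itln1, intelectin, a lectin that binds microbial sugars, measured 1031, 1360.4 and 816 FPKM in A10-FMT against 629, 524 and 478 FPKM in A100-FMT, a change of -0.95 (SE 0.19, adjusted p = 0.010). Again no value of A100-FMT reached those of A10-FMT.

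The alpha-defensins, small peptides that pierce bacterial membranes, were among the most abundant transcripts. Defa35 fell by 1.32 on the log2 scale (SE 0.31, adjusted p = 0.022), from a mean of 1388 ± 439.4 FPKM to 577 ± 255.4 FPKM (SD, n = 3 each). Defa5 (-0.94), Defa29 (-0.89), Defa24 (-0.69), Defa17 (-0.67) and Defa26 (-0.62) were also called lower, with adjusted p-values of 0.039, 0.017, 0.037, 0.030 and 0.040. Defa31, the most abundant at 9328, 11371 and 7903 FPKM in A10-FMT and 7063, 5890.4 and 3681 FPKM in A100-FMT, did not overlap between the groups but missed the threshold (-0.82, adjusted p = 0.062). Defensin genes are near-identical copies, so the share of reads each received is uncertain and these members are not independent of each other.

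Pla2g2f, chosen here after its values were seen, encodes a secreted phospholipase, belongs to no multigene defensin family and is placed on chromosome 4 (138750533 to 138757598, NCBI Gene 26971). It gave 7.80, 9.51 and 6.79 FPKM in A10-FMT and a narrow 3.95, 4.18 and 4.07 FPKM in A100-FMT. The change of -0.82 (SE 0.11, adjusted p = 0.0019) remained called in all 17 alternatives other than the fits to 6 or 11 libraries. In set 2 all 25 members had a lower mean in A100-FMT, with a median of -0.73. No member's change differed between the sets at an adjusted p of 0.05. However, 0 members were called in set 2 itself, and 7 did not overlap in the lower direction, against 7.16% of all genes tested. The list mean, centred over all libraries, was 0.51 ± 1.07 in A10-FMT and -0.27 ± 0.65 in A100-FMT of set 2 (SD, n = 3 each). Most members are defensin copies, so their shared direction is not 25 separate results. Within set 1, Paneth genes of A100-FMT were below Con-FMT by a median of 1.03 on the log2 scale, while those of A10-FMT were below it by 0.36. In a bulk sample fewer cells of a type and less RNA per cell cannot be told apart, here and in all that follows.

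**Figure D2:**
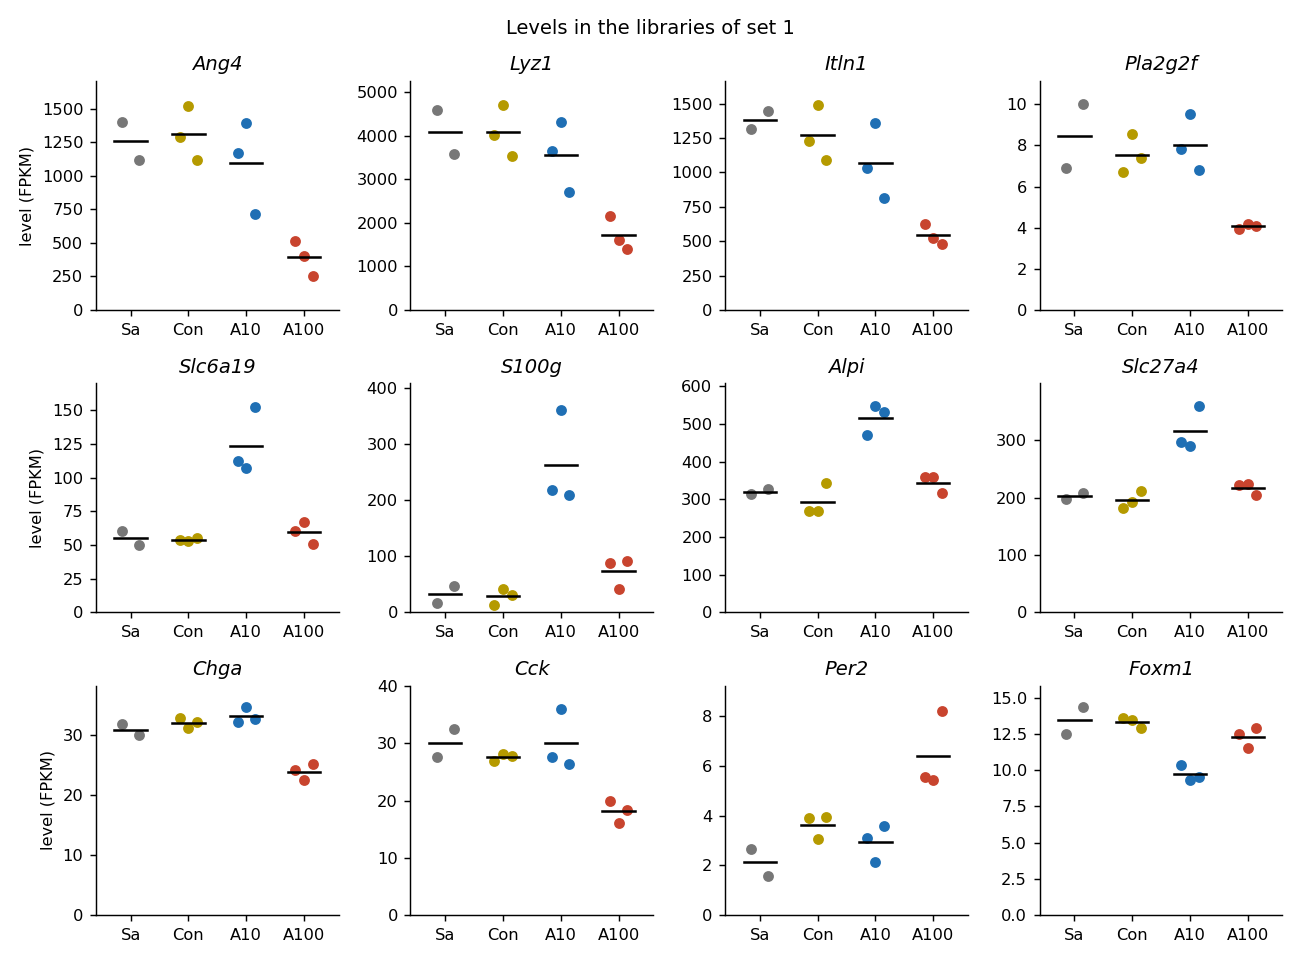
Level (FPKM, vertical axes from 0) of 12 genes in the libraries of set 1, grouped as Sa (n = 2), Con-FMT, A10-FMT and A100-FMT (n = 3 each). Points are libraries and bars are group means. Ang4, Lyz1, Itln1, Pla2g2f, Chga and Cck sit lower in A100-FMT than in the other 3 groups, while Slc6a19, S100g, Alpi and Slc27a4 sit higher in A10-FMT than in the other 3.

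Short motifs before the start sites were counted in the gene groups. Promoters from RefSeq (GRCm38.p6) were searched on both strands for the TATA box TATAAA in the 150 bases before the start that the table gives. It was present in 8.89% of all 27025 promoters and in 4.51% of the promoters of genes tested, against 12 of 16 Paneth genes with a promoter in the table (75.0%), 7 of 22 brush-border enzyme genes (31.8%) and 0 of 40 crypt proliferation genes. Of promoters of genes called lower, 15 of 152 held it (9.87%), and of genes called higher 11 of 332 (3.31%). The CCAAT box, CCAAT on either strand, was in 27.7% of all promoters, 32.6% of those of genes tested, 29.6% of those called lower and 29.2% of those called higher. It was in 29 of 40 of those of crypt proliferation genes (72.5%), 7 of 16 of Paneth genes (43.8%) and 7 of 10 of clock genes (70.0%). The motif TTTGAA, known as the core of the cell cycle homology region, was in 10.5% of all promoters, 6.69% of those tested, 3.29% of those called lower and 6.93% of those called higher, and in 9 of 40 of those of crypt genes (22.5%). The clock motif CACGTG was in 4.92% of all promoters, 7.47% of those tested, 5.26% of those called lower and 8.13% of those called higher, and in 2 of 10 of those of clock genes. The motifs do not overlap each other as letters, and a match is only a match of letters. Most genes of the Paneth list are defensin copies, so their promoters may not be independent of each other.

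As examples, 3 genes that were lower and 2 that were higher in A100-FMT are printed 5′ to 3′ in the direction of transcription, 150 bases each, with every match to these 4 motifs in capitals. Defa35 (chr8:21064888-21065037, plus strand), Alpi (chr1:87101607-87101756, minus strand) and Areg (chr5:91139449-91139598, plus strand) hold TATAAA, on the reverse strand as TTTATA in Alpi, beginning 46, 33 and 31 bases before the start. Defa35 also holds CCAAT, on the reverse strand as ATTGG, at 13 bases. Cenpa (chr5:30666736-30666885, plus strand) holds CCAAT on the reverse strand as ATTGG at 109 and 86 bases before the start, and E2f8 (chr7:48881597-48881746, minus strand) holds it at 112 bases with TTTGAA, as TTCAAA, at 20 bases. The start used by the table lies inside the annotated gene for these last 2, by 9 bases in Cenpa and 477 bases in E2f8, so that the E2f8 stretch lies within the gene.
Defa35: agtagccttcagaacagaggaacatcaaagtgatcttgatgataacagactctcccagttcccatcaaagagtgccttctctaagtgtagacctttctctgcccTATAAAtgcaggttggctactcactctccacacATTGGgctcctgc
Alpi: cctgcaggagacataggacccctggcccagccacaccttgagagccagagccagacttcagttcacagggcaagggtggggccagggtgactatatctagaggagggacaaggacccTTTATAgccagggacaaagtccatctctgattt
Areg: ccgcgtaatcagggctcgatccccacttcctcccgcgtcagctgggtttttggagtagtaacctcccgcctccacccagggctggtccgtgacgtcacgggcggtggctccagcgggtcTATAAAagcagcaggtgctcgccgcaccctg
Cenpa: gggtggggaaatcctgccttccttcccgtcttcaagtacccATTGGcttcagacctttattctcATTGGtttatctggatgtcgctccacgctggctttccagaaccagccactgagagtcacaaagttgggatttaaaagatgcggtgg
E2f8: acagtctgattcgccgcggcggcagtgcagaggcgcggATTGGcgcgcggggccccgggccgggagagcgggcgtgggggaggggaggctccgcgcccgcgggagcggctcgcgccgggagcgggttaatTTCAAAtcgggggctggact

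Several enzymes of the brush border were lower in A100-FMT. Of 25 tested, 6 were called lower and 0 higher, with a median change of -0.33. In the lower direction 12 did not overlap, against 8.37% of all genes tested. A higher mean in A100-FMT was seen for 4, Mgam (0.14), Sis (0.1), Cpox (0.086) and Mep1a (0.058), and none of these was called. Alpi (NCBI Gene 76768), the intestinal alkaline phosphatase that strips phosphate from bacterial endotoxin, gave 470.2, 549 and 533 FPKM in A10-FMT and 359, 359 and 317 FPKM in A100-FMT. The groups were apart by more than 100 FPKM, with a change of -0.58 (SE 0.12, adjusted p = 0.014). Anpep, aminopeptidase N, which trims peptides, declined from 2122 ± 221.9 to 1611 ± 82.9 FPKM (change -0.39, adjusted p = 0.016). Ggt1 (-0.50), which cleaves glutathione, Slc3a1 (-0.34), a subunit of the cystine transporter, Enpp3 (-0.82), a nucleotide phosphatase, and Tmprss15 (-1.04), the enteropeptidase that activates trypsin, were the other 4 called lower. Tmprss15 was scarce, at 3.53, 4.14 and 3.90 FPKM in A10-FMT and 1.47, 0.89 and 1.81 FPKM in A100-FMT.

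Genes for the microvillus core and its anchoring followed, with 5 of 24 called lower, 0 higher and a median of -0.17. Vil1 (NCBI Gene 22349, chromosome 1, 74409384 to 74435560), villin, the actin bundler of microvilli, read 854, 798 and 914 FPKM in A10-FMT and 746, 733 and 674 FPKM in A100-FMT. Its change was small, -0.25 (SE 0.061, adjusted p = 0.025). Espn, espin, another actin bundler, had a larger one of -0.64 (SE 0.15, adjusted p = 0.025). Ezr, ezrin, which ties actin to the membrane, Slc9a3r1, its scaffold partner, and Cdhr2, a cadherin that links neighbouring microvilli, changed by -0.33, -0.43 and -0.30 with adjusted p-values of 0.0052, 0.020 and 0.039.

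Among 18 amino acid and peptide transporters tested, 5 were called lower and 0 higher, with a median of -0.23. Slc6a19 (NCBI Gene 74338, chromosome 13, 73679745 to 73700780), B0AT1, the main importer of neutral amino acids, measured 112, 107 and 152 FPKM in A10-FMT. It measured 60.7, 66.8 and 50.8 FPKM in A100-FMT, near the 54.0 ± 1.14 FPKM of Con-FMT and the 55.3 FPKM of Sa. The change between the AOS groups was -1.04 (SE 0.14, adjusted p = 0.0015). Slc7a7 (-0.43, adjusted p = 0.0027) and its partner Slc3a2 (-0.26, adjusted p = 0.032), which together export cationic amino acids into the blood, and Slc15a1 (-0.51, adjusted p = 0.041), the peptide importer PEPT1, declined along with Slc3a1. Slc3a1 is in this list and in that of brush-border enzymes, and is counted in each.

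Calcium, water and ion handling gave 1 strong single case and a mixed group. S100g (NCBI Gene 12309, chromosome X, 162961992 to 162964599), calbindin-D9k, which ferries calcium across the enterocyte, stood at 218, 360.0 and 209 FPKM in A10-FMT and 88.0, 42.4 and 91.5 FPKM in A100-FMT. Con-FMT was lower still, at 13.9, 41.1 and 31.4 FPKM, so that its 3 libraries lay under all of A10-FMT and all of A100-FMT. The change of -1.85 carried an SE of 0.52 (adjusted p = 0.047) and lost its call in 9 of 17 alternatives. S100g was the 1 gene called among 7 of calcium absorption and among 12 markers of the proximal small intestine, whose summed level was 2290 to 3200 FPKM in A10-FMT and 1610 to 1960 FPKM in A100-FMT, against 1540 to 1930 and 1380 to 1660 FPKM for distal markers. The part of the position along the intestine in these results was not tested.

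Of 27 ion and water transporters 4 were called lower and 1 higher, with a median of -0.12. Aqp3, a channel for water and glycerol, gave 14.6, 15.5 and 22.5 FPKM in A10-FMT and 7.03, 9.10 and 4.43 FPKM in A100-FMT. Those values did not overlap and the change was -1.26 (SE 0.24, adjusted p = 0.0093). Aqp7 (-0.73), a second glycerol channel, Car2 (-0.64), a carbonic anhydrase, and Slc9a2 (-0.26), a sodium and proton exchanger, were lower, and Kcnq1 (0.37), a potassium channel of crypt cells, was higher. Slc46a1, the folate carrier, was the only member called among 15 genes of iron absorption and storage, where it is listed as a heme carrier (-0.54, adjusted p = 0.030), and Rbp2, which binds retinol inside enterocytes, the only one among 20 of retinoid metabolism (-0.54, adjusted p = 0.031). The share of all genes tested that was called lower was 1.71%.

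Fat absorption held the largest number of lower calls after the Paneth genes, 8 of 29 with 0 higher and a median of -0.25. In the lower direction 18 members did not overlap, against 8.37% of all genes tested. Slc27a4 (NCBI Gene 26569, chromosome 2, 29802634 to 29817522), FATP4, which takes up fatty acids, read 297, 289 and 361 FPKM in A10-FMT and 222, 223 and 204 FPKM in A100-FMT. The change was -0.54 (SE 0.091, adjusted p = 0.0068). Acsl5, which activates fatty acids with coenzyme A, and Mogat2 and Gpat3, which build them back into triglyceride, changed by -0.46, -0.37 and -0.42. Apoc2, the cofactor of lipoprotein lipase carried on chylomicrons, read 489.9, 705 and 747 FPKM in A10-FMT and 342, 385 and 319 FPKM in A100-FMT (-0.87, adjusted p = 0.026), and Pnliprp2, a lipase, changed by -0.90 (adjusted p = 0.046). The other 2 called were Plin3 (-0.34), a lipid droplet coat protein, and Agpat2 (-0.25), an acyltransferase of the same pathway, both named after their values were seen. Fabp2, a fatty acid binding protein of enterocytes, had means of 2647 ± 295.7 and 1737 ± 201.2 FPKM, which did not overlap, at an adjusted p of 0.071. Cidec, which enlarges lipid droplets and was listed here as an adipocyte marker, changed by -0.76 (adjusted p = 0.010).

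Of 40 detoxifying cytochrome P450 and conjugation genes 4 were called lower and 0 higher, with a median of -0.15. These were Ces2c, a carboxylesterase (-0.55), Sult2b1, a sterol sulfotransferase (-0.51), Cyp4b1 (-0.76) and Por, the reductase that feeds electrons to P450 enzymes (-0.44), with adjusted p-values of 0.010, 0.016, 0.045 and 0.024. Of 37 glutathione and antioxidant genes 4 were lower and 0 higher, namely the glutathione transferases Gsta1 (-0.88), Gsta2 (-0.73) and Gstm6 (-0.34) and the peroxidase Gpx3 (-0.42). Gsta1 and Gsta2 are close copies, so their levels are not fully separable. A list of 15 genes joined the villus tip with purine and nucleoside handling, and not every member handles nucleosides. In it Upp1, uridine phosphorylase, declined from 393 ± 52.4 to 219.6 ± 57.8 FPKM (change -0.86, adjusted p = 0.0092). Klf4 (-0.50), a factor of differentiated cells, and Pnp (-0.23), purine nucleoside phosphorylase, were lower too, and Egfr, the receptor of epidermal growth factor, was higher (0.30, adjusted p = 0.035).

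**Figure D3:**
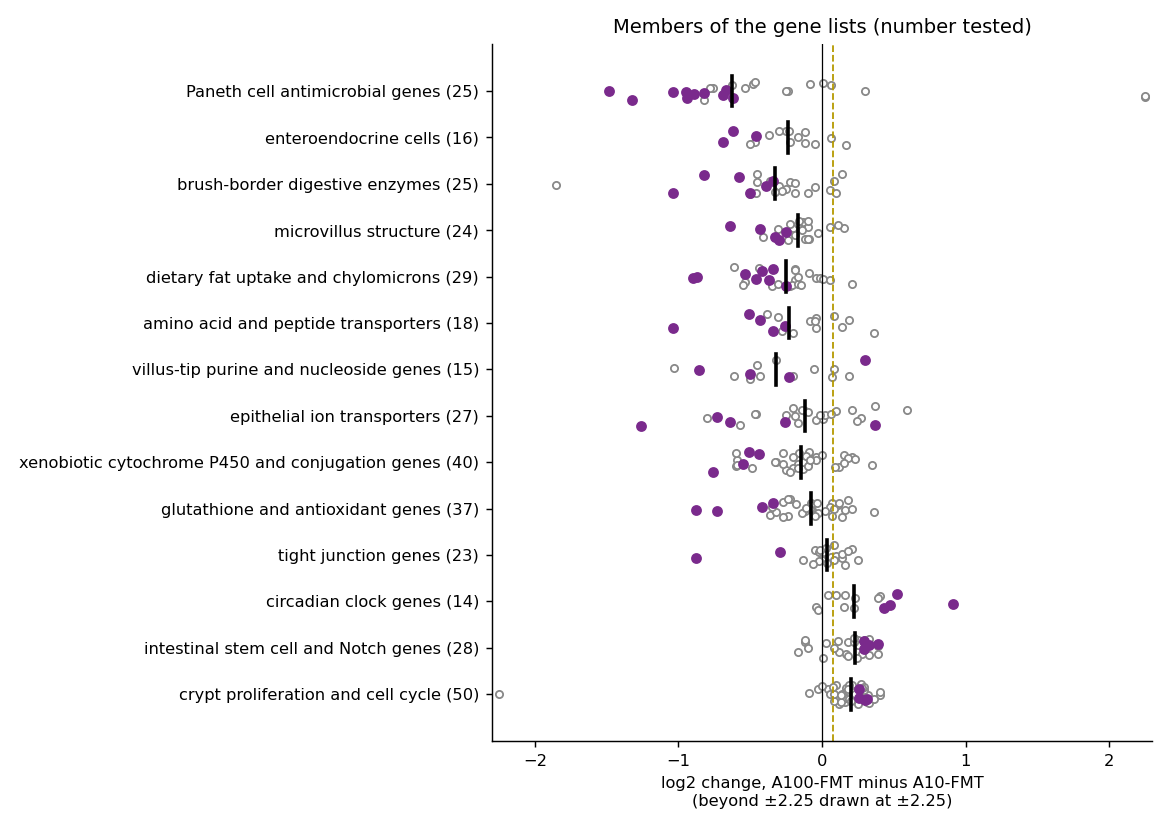
Log2 change (A100-FMT minus A10-FMT, horizontal axis) of each member tested in 14 gene lists (rows, number tested in brackets); filled points were called, open points were not, black bars are list medians the dashed line is the median of all genes tested, 0.076, and the few points at either edge lie farther out than drawn. The medians run from -0.63 for Paneth genes to 0.23 for stem cell genes.

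Of 16 enteroendocrine markers tested 3 were called lower in A100-FMT. Chga (NCBI Gene 12652, chromosome 12, 102554941 to 102565027), chromogranin A of hormone granules, gave 32.2, 34.8 and 32.7 FPKM in A10-FMT and 24.1, 22.5 and 25.2 FPKM in A100-FMT. Con-FMT (32.1 ± 0.826 FPKM) and Sa (30.9 FPKM) were close to A10-FMT, and the change was -0.46 (SE 0.066, adjusted p = 0.0025). Cck (NCBI Gene 12424, chromosome 9, 121489824 to 121495694), cholecystokinin, the hormone that empties the gall bladder, read 27.7, 36.1 and 26.4 FPKM against 19.9, 16.2 and 18.4 FPKM. All A100-FMT libraries lay below the others, at a change of -0.69 (SE 0.11, adjusted p = 0.0063), and Chgb, chromogranin B, changed by -0.62 (SE 0.11, adjusted p = 0.0092). No marker was called higher, and the list had a median of -0.24.

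Among the other genes called lower were several with large changes. Areg, amphiregulin, a growth factor for the epithelium, stood at 10.4, 9.18 and 12.8 FPKM in A10-FMT and 5.30, 3.93 and 2.50 FPKM in A100-FMT, a change of -1.29 (SE 0.25, adjusted p = 0.010). Ido1, which degrades tryptophan, measured 24.8, 23.2 and 29.5 FPKM against 15.5, 10.5 and 10.97 FPKM, a change of -1.02 (SE 0.20, adjusted p = 0.010). In both genes the A100-FMT libraries lay under all A10-FMT libraries. Egln3, an oxygen-sensing hydroxylase (-0.71), Sgk2, a kinase that regulates transporters (-0.65), Aldh4a1, a mitochondrial enzyme of proline breakdown (-0.96), and Gbp2, an interferon-induced GTPase (-0.70), were lower, with adjusted p-values of 0.0074, 0.019, 0.022 and 0.010. Gbp2 was the only gene called among 13 interferon-inducible GTPases, and Irf9, a part of the interferon signal, the only one among 39 antiviral genes, in the upward direction (0.22, adjusted p = 0.024). With 3.95% of all genes tested called higher and 1.71% lower, these single calls are not shown to be particular to their lists.

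Genes that were higher in A100-FMT included parts of the molecular clock. Per2 (NCBI Gene 18627, chromosome 1, 91415977 to 91459351), a repressor in the daily feedback loop, gave 3.09, 2.11 and 3.58 FPKM in A10-FMT and 5.53, 5.42 and 8.20 FPKM in A100-FMT. The groups did not overlap and the change was 0.91 (SE 0.19, adjusted p = 0.013). Bhlhe40 (0.52), a repressor of the same loop, and Wee1 (0.43), a mitotic kinase under clock control, were called as well. Of 14 clock genes 4 were called higher and 0 lower, with a median of 0.22. The hour of sampling is not in the labels, and its part in the result was not tested.

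Most crypt genes had a slightly higher mean in A100-FMT, few of them past the test. Of 50 genes of proliferation and the cell cycle, 47 had a higher mean in A100-FMT, 36 did not overlap in the upward direction, and 4 were called higher and 0 lower, with a median of 0.20. Among all 11337 genes tested, 7632 had a higher mean, 28.1% did not overlap upward and 3.95% were called higher, with a median of 0.076. Under trimmed-mean scaling the median was 0.12 and 0 of the 50 were called. Foxm1 (NCBI Gene 14235, chromosome 6, 128362994 to 128375886), which switches on genes of mitosis, read 10.4, 9.35 and 9.55 FPKM in A10-FMT and 12.5, 11.5 and 12.9 FPKM in A100-FMT, with a change of 0.31 (SE 0.062, adjusted p = 0.012). Con-FMT (13.3 ± 0.347 FPKM) and Sa (13.5 FPKM) were above both. Cenpa, the histone of centromeres (0.26), E2f8, a repressor of the cell cycle (0.30), and Tyms, thymidylate synthase (0.26), were the others called, with adjusted p-values of 0.047, 0.029 and 0.030. The exception at the other end of the list was Tubb5, at 30.2, 57.8 and 30.7 FPKM in A10-FMT and 0.37, 29.97 and 0.66 FPKM in A100-FMT, a change of -3.23 that was not called (adjusted p = 0.18).

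Stem cell and Notch genes had 4 of 28 called higher, 0 lower and a median of 0.23, and trimmed-mean scaling again left 0 called. Smoc2, a marker of crypt base stem cells, measured 28.7, 28.3 and 27.6 FPKM in A10-FMT and 35.2, 33.9 and 34.8 FPKM in A100-FMT, a narrow range in each group (change 0.29, SE 0.070, adjusted p = 0.027). Lrig1, a brake on growth factor receptors of stem cells, Myc, a transcription factor of dividing cells, and Tert, the telomerase enzyme, changed by 0.29, 0.33 and 0.39. Outside these lists, Slc17a4, an organic anion carrier, gave 15.1, 12.8 and 10.1 FPKM against 21.0, 26.2 and 25.9 FPKM (change 0.90, SE 0.21, adjusted p = 0.020). Mlxipl, the glucose-sensing factor ChREBP, rose from 42.8 ± 3.80 to 67.0 ± 3.89 FPKM (0.64, adjusted p = 0.012). Kdsr (0.58) and Acer2 (0.55), both enzymes of ceramide metabolism, Muc4 (0.52), a membrane mucin, Ceacam10 (0.85), Ankle1 (0.64), Whrn (0.56) and Mreg (0.55) were called higher. Gigyf1 (0.57, adjusted p = 0.0014) and Cntrob, a centriole protein (0.41, adjusted p = 0.00080), had among the smallest p-values, and remained called in the 16 and 17 alternatives other than the fits to 6 or 11 libraries in which they were tested.

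A further list held genes of proteins that were stained or blotted in these mice, and both beta- and delta-catenin, since the catenin antibody was against the delta form. Of 13 listed, 11 passed the level filter, and the others, Cldn1 and Gja4, were not tested. The study names claudin without saying which member, so Cldn1 was a choice made here. Cdh1, E-cadherin, which joins epithelial cells, read 228, 208 and 215 FPKM in A10-FMT and 254, 242 and 251 FPKM in A100-FMT, a change of 0.20 (SE 0.049, adjusted p = 0.027) that was not called under trimmed-mean scaling. Vil1 was lower, as described. For Ocln (0.081) and Tjp1 (0.25), parts of tight junctions, Ctnnb1 (0.022), beta-catenin, Ctnnd1 (-0.010), delta-catenin, Gata4 (0.12), a factor of the proximal intestine, Sox4 (0.39), a factor of progenitors, and Bcl2l1 (-0.055), which blocks cell death, adjusted p-values were 0.60, 0.24, 0.87, 0.94, 0.44, 0.082 and 0.68. The other 2 members were not called. Of 23 tight junction genes Cldn4 (-0.88, adjusted p = 0.033) and Crb3 (-0.29, adjusted p = 0.030), which sets the polarity of the cell, were lower and 0 higher, at a list median of 0.033.

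Markers of other cells gave few calls. None of 15 goblet cell genes tested was called, and their summed level was 10000.0 to 11400.0 FPKM in A10-FMT and 9730.0 to 10600.0 FPKM in A100-FMT. All 9 T cell and intraepithelial lymphocyte genes tested were lower in A100-FMT with a median of -0.34, but 0 were called, and the summed levels overlapped, at 86.1 to 165 FPKM against 69.5 to 126 FPKM. Smooth muscle (71.1 to 82.9 against 76.8 to 87.5 FPKM), B and plasma cells (133 to 146 against 139 to 142 FPKM) and macrophages, granulocytes and mast cells (66.1 to 71.5 against 69.1 to 76.0 FPKM) overlapped too. Besides the proximal and enteroendocrine markers, the sums that did not overlap were lower in A100-FMT, namely those of genes listed as adipocyte markers (51.1 to 69.3 against 41.6 to 44.5 FPKM), of pancreatic acinar enzymes (9.25 to 14.1 against 7.73 to 8.83 FPKM) and of markers of enteric neurons and glia (1.22 to 1.44 against 0.77 to 1.09 FPKM). The adipocyte sum was mostly Lipe, Cidec and Pparg, at means of 25.85, 19.39 and 6.01 FPKM over the 6 libraries. The other 5 of its 8 members stayed below 1 FPKM, as did 15 of 20 acinar enzymes and all 11 neuron and glia markers. These 3 sums therefore do not show a change in such cells. The parts of these cells in the changes above were not tested. Genes of sterol synthesis (32 tested), oxidative phosphorylation (43), class I presentation (26), p53 targets (20) and heat shock (15) had 0 calls. Of 30 genes of endoplasmic reticulum stress Ern1 was higher (0.36) and Trib3 lower (-0.48). Among 19 immediate early genes Maff (-0.48) and Klf4 were lower, while Myc was higher. Of 30 genes of fatty acid oxidation Slc25a20, the carnitine carrier, was lower (-0.28). The shares called over all genes tested were 3.95% higher and 1.71% lower. So few calls are therefore not shown to be particular to these lists.

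The same doses were compared in set 2, also with 3 libraries against 3. There 1 gene, Sidt1, was called, lower (0.00882%), 0 higher (0.0%), and 808 had an unadjusted p under 0.05 (7.13%). Groups did not overlap for 16.7% of genes, 9.53% with A100-FMT higher and 7.16% lower. The difference of the change between the sets was called for 397 genes (3.50%), 222 toward a higher value in set 1 (1.96%) and 175 toward a lower one (1.54%), with 2126 genes at an unadjusted p under 0.05 (18.8%). Of the genes called lower in set 1, 43 of 194 had the same sign in set 2, and of those called higher 129 of 448. For 107 and 178 of them the difference itself was called.

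Several lists divided in the same manner. Brush-border enzymes had a median of -0.33 in set 1 and 0.23 in set 2, and the difference was called for 6 of 25 members. For fat absorption the medians were -0.25 and 0.10 with 13 of 29 members called for the difference, for amino acid transporters -0.23 and 0.068 with 6 of 18, and for P450 and conjugation genes -0.15 and 0.22 with 9 of 40. The upward lists did not carry over either. Their medians in set 1 and set 2 were 0.20 and -0.013 for crypt, 0.23 and -0.1 for stem cell and 0.22 and 0.021 for clock genes. The difference was called for 2 of 50, 3 of 28 and 1 of 14 members. Slc6a19 read 34.3, 40.8 and 38.0 FPKM in A10-FMT and 51.5, 48.3 and 53.7 FPKM in A100-FMT of set 2, so that the groups were apart in the opposite direction, and its changes differed by -1.47 (adjusted p = 0.0043). Aqp3 was likewise apart in the opposite direction, at 3.87, 2.66 and 3.20 against 7.06, 5.80 and 8.65 FPKM (difference -2.20, adjusted p = 0.0046). The Paneth list, with 0 of 25 members called for the difference, did not divide in this way, and Ang4 gave 1362, 1355 and 834 FPKM against 550.3, 369.7 and 469 FPKM in set 2, again without overlap. The enteroendocrine median was below 0 in both sets, -0.24 and -0.093. In set 2, 12 of its 16 members had a lower mean in A100-FMT, and the difference was called for 2.

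**Figure D4:**
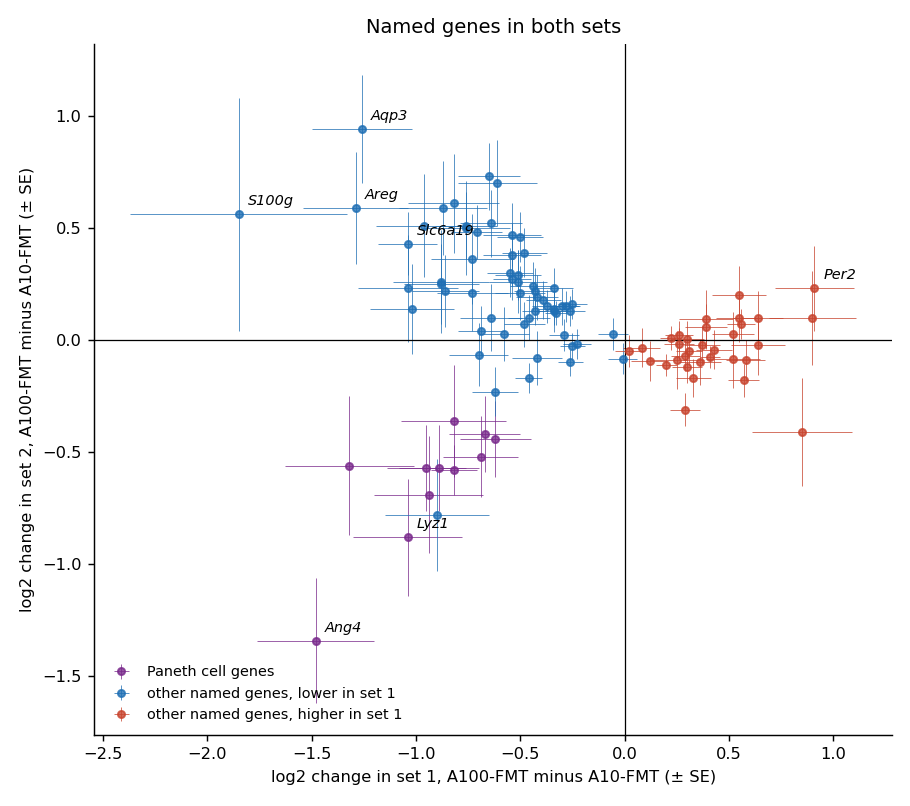
Log2 change between A100-FMT and A10-FMT in set 1 (horizontal) and set 2 (vertical) for the genes named here, with bars of 1 standard error from the fit. Genes were named for their set 1 values. Paneth genes (purple) lie in the lower left, lower in both sets, while most other genes lower in set 1 (blue), such as Slc6a19, Aqp3, Areg and S100g, lie above 0 in set 2.

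The groups were also set beside the controls of set 1, as a description without a test. The same count over all genes tested was not made, so these counts are not shown to be particular to the genes given. The mean of Con-FMT was nearer to A100-FMT than to A10-FMT for 355 of the 448 genes called higher and 175 of the 194 called lower, and the mean of Sa for 255 and 155 of them. By list, Con-FMT was nearer to A100-FMT for 24 of 25 brush-border enzymes, 26 of 29 fat absorption genes and 47 of 50 crypt genes, and for 5 of 25 Paneth and 5 of 16 enteroendocrine genes. For most absorptive and crypt genes A10-FMT was thus the group farther from Con-FMT, and for most Paneth and enteroendocrine genes it was A100-FMT. The mean of the brush-border list, centred over all libraries, was 0.46 ± 0.12 in A10-FMT, 0.088 ± 0.0070 in A100-FMT and -0.10 ± 0.16 in Con-FMT (SD, n = 3 each) on the log2 scale.

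**Figure D5:**
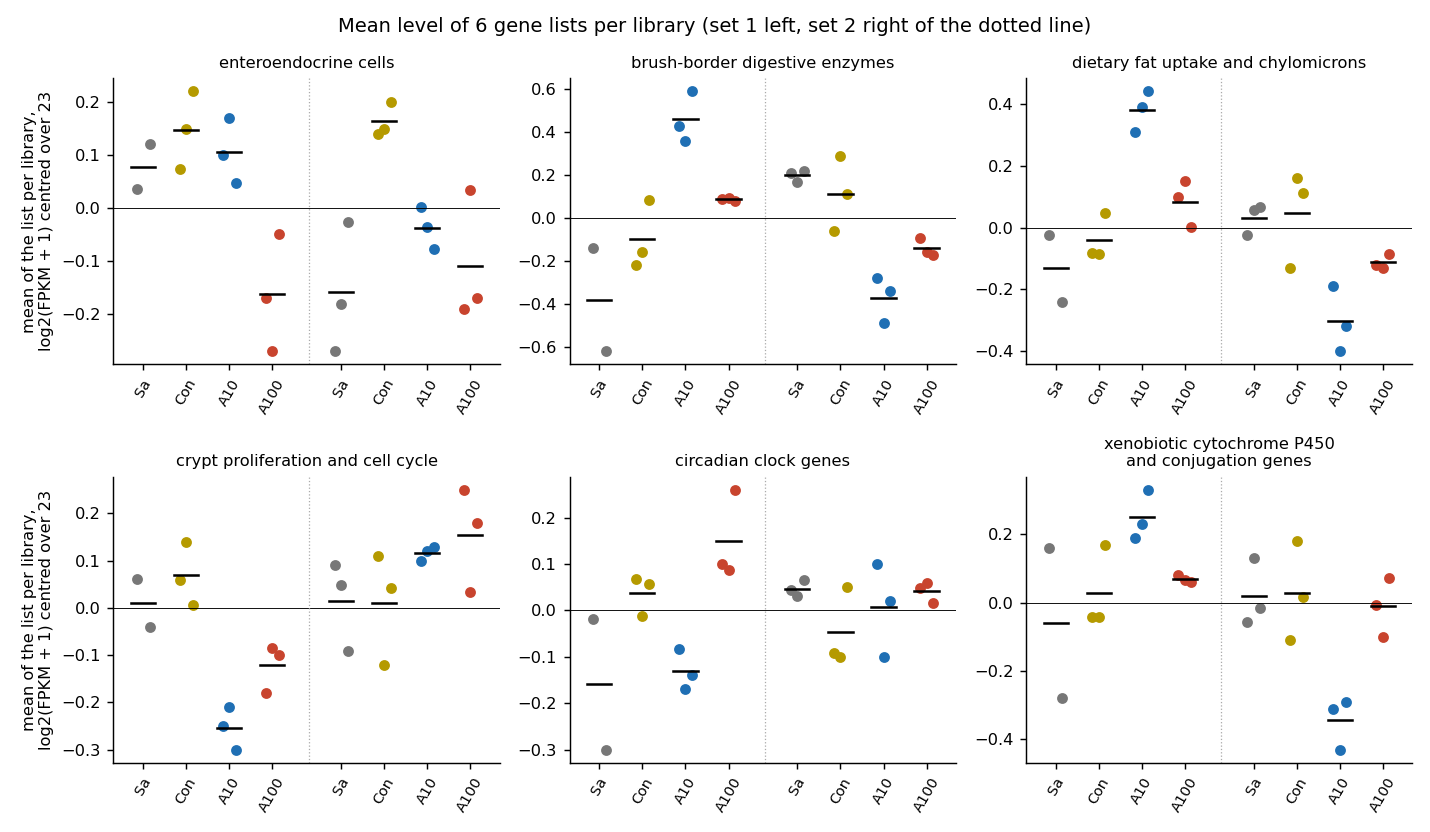
Mean of 6 gene lists in every library (vertical axis, log2 of FPKM + 1 centred over the 23 libraries), with groups of set 1 left and of set 2 right of the dotted line; points are libraries and bars are group means. In set 1 the brush-border, fat and detoxification lists are highest in A10-FMT and the crypt list lowest there, while in set 2 A10-FMT is lowest for the first 3 of these.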

How the data were processed

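Total RNA of the small intestine was sequenced in 23 libraries of 8 groups (4 treatments in each of 2 sets). The authors deposited a table of FPKM values for 19215 entries with 2 decimals, on mouse build mm10 per the labels; the aligner is not given in the sources used here, and the study's methods speak of RPKM. All 23 samples were matched to columns by title, and the table's other column, which the description of a Sa sample names, served only as an alternative. Of the entries, 17842 had an NCBI Gene number, 17725 of them matched to a symbol. Read depth is unknown; the summed FPKM of the 6 libraries compared was 557083 to 612482.

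The analysis used log2(FPKM + 1), so changes of low genes are understated. Genes averaging 1 FPKM or more across the 23 libraries (11337, leaving out 7878) were fitted with limma 3.58.1 in R 4.3.3 (means of 8 groups, 15 residual degrees of freedom, variance trend, two-sided, Benjamini-Hochberg, threshold 0.05); a call means an adjusted p below it, and all adjusted p-values come from this fit. The difference between the sets was a contrast of the same fit. On simulated data with 200 changed genes 67.7% of changes of 0.5 and 92.7% of changes of 1 on the log2 scale were recovered, with 5.42% of calls false. The simulated noise was normal, independent between genes and of equal spread in all libraries. The real libraries differed in spread, so these rates cannot be carried over to the calls reported here. An exact permutation test of 3 against 3 cannot give a p below 0.1.

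Genes were named by rule: those of proteins the study measured; the 15 largest changes in each direction among called, non-overlapping genes with a symbol and a higher group mean of at least 5 FPKM; up to 6 called members and the most abundant members of each list, many of which enter only the counts (some called genes that the rule names are not reported here); and genes with the smallest p for the difference between the sets. Plin3, Agpat2, Pla2g2f, Defa17 and Defa26 were named after their values were seen. The comparison and the 48 gene lists were chosen with earlier results of these data known. Alternatives were another pseudocount, filters, scaling (quantile, trimmed mean), GC and length, array weights, a replicate block, other sets of libraries and leaving out each replicate. Python 3.11.15, numpy 2.4.6, pandas 2.3.3 and matplotlib 3.10.9 were used. Promoters and positions are RefSeq, GRCm38.p6.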

Additional observations from a re-analysis of the deposited data

Results flagged for a closer look

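The change between A100-FMT and A10-FMT differed between the sets for 397 genes by the contrast of both changes in limma (adjusted p under 0.05). The values that follow are the log2 change in set 1 minus that in set 2 for the genes named in the report that passed this test.

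Among brush-border and microvillus genes the difference was -1.43 for Enpp3, -1.28 for Tmprss15, -1.16 for Espn, -0.97 for Ggt1, -0.64 for Slc9a3r1, -0.57 for both Anpep and Slc3a1, and -0.45 for both Ezr and Cdhr2. Transporters had values of -1.47 for Slc6a19, -0.76 for Slc15a1, -0.56 for Slc7a7 and -0.39 for Slc3a2, of -2.20 for Aqp3 and -1.08 for Aqp7, and of -1.01 for Slc46a1, with -0.92 for Rbp2.

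In fat absorption the differences were -1.46 for Apoc2, -1.31 for Fabp2, -0.80 for Slc27a4, -0.60 for Gpat3, -0.56 for Acsl5, -0.52 for Mogat2, -0.48 for Plin3 and -0.41 for Agpat2, and beside them -1.27 for Cidec and -0.44 for Slc25a20. Detoxifying genes gave -1.26 for Cyp4b1, -0.85 for Ces2c, -0.80 for Sult2b1, -0.68 for Por, -1.13 for Gsta1 and -0.95 for Gsta2.

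Of the remaining genes lower in set 1, the differences were -1.88 for Areg, -1.47 for Aldh4a1, -1.38 for Sgk2, -1.19 for Egln3, -1.16 for Ido1, -1.08 for Upp1, -0.87 for Trib3, -0.73 for Cck, -0.71 for Klf4 and -0.55 for Maff. Genes higher in set 1 had differences of 1.26 for Ceacam10, 0.75 for Gigyf1, 0.67 for Kdsr, 0.59 for Lrig1, 0.50 for Myc, 0.49 for Cntrob, 0.48 for Whrn, 0.47 for Wee1, 0.41 for E2f8, 0.36 for Foxm1 and 0.31 for Cdh1. No Paneth gene was among them. The genes were named for their set 1 values, so the sizes lean toward large ones.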

How the results depend on the processing

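The number of genes called (642, of which 448 higher and 194 lower) depended on which libraries gave the spread. It was 0, 0 higher and 0 lower, in the fits to the 6 libraries alone and to the 11 libraries of set 1. It was 2102 (1648 higher, 454 lower) without the 5 Sa libraries, 2292 (1826 and 466) with the other column for a Sa sample and 1978 (1546 and 432) with array weights, which gave both Sa libraries of set 1 a weight of 0.0859. Quantile normalization gave 354 (168 higher), trimmed-mean scaling 125 higher and 315 lower, and the GC and length adjustment 552 lower. Leaving out 1 replicate gave 27 to 359 calls, 17 to 235 higher and 10 to 124 lower. The counts were 269, 203 and 233 without A10-FMT libraries 1, 2 and 3 and 327, 359 and 27 without A100-FMT libraries 1, 2 and 3; fewer samples were fitted, and no other cause was tested.

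The count for the difference between the sets (397, 222 higher and 175 lower) was 1229 (827 and 402) without the Sa libraries, 1434 (1015 and 419) with the other column, and 1680 (1179 and 501) with array weights. It had 130 higher under quantile normalization, 100 higher under trimmed-mean scaling and 376 lower under the GC and length adjustment. Leaving out 1 replicate gave 85 to 370 calls, 42 to 202 higher and 43 to 168 lower, the smallest without A100-FMT library 3. A required ratio of 1.5 gave 95 genes higher and 186 lower, and adding 0.1 to the means gave 55 higher; leaving out 1 replicate gave 24 to 44 higher, the most without A10-FMT library 3.

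Replicate numbers did not pair the samples: deviations of same-numbered libraries correlated at 0.0314, 0.00187 and -0.119 across genes, so the block is given here only. With the replicate block 499 genes were called (339 higher), and the difference between the sets was called for 259 (136 higher).

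Of 135 list medians under quantile normalization, trimmed-mean scaling, the GC and length adjustment (added after seeing the data) and the leaving out of replicates, 27 moved, and 3 took the opposite sign. Under trimmed-mean scaling they were 0.0022 for the proteins measured, -0.25 for microvillus, -0.33 for fat absorption, -0.32 for amino acid transporters, -0.20 for ion transporters, -0.044 for tight junctions, 0.12 for crypt, 0.17 for stem cell, -0.16 for glutathione and -0.23 for P450 genes. Under quantile normalization they were -0.078 for ion transporters and 0.14 for both stem cell and clock genes. With the GC and length adjustment they were -0.040 for the proteins measured, -0.41 for villus-tip, -0.21 for ion transporters, -0.024 for tight junctions, 0.13 for crypt, 0.12 for both stem cell and clock genes and -0.23 for P450 genes. Leaving out 1 replicate gave -0.45 to -0.24 for brush-border enzymes, -0.17 to -0.045 for ion transporters and 0.020 to 0.11 for tight junctions. In these alternatives the Paneth and enteroendocrine medians moved by less than the spread, the pooled SD of the library means of a list. That spread was 0.45 for Paneth genes, against 0.089 for enteroendocrine genes and 0.081 for brush-border enzymes. The Paneth median of -0.44 under quantile normalization, from -0.63, was therefore not counted as moved.

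Of 92 called genes named, 78 remained called under trimmed-mean scaling and 82 with the GC and length adjustment. Under quantile normalization it was 66, and without A100-FMT library 3 it was 12. Gpx3, also called, was not among the 92 counted. None of those 92 changed sign. Among genes that were not called, Ocln turned to -0.035 with the GC and length adjustment, and Ctnnb1 to -0.056 there and to -0.059 under trimmed-mean scaling, with -0.014 to 0.076 when 1 replicate was left out. Ctnnd1 turned to 0.037 under quantile normalization, with -0.046 to 0.053 when 1 replicate was left out. The cause was not tested for any of these. FPKM without counts gives no counting error, and the precision of low genes is limited by the unknown depth.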

Other observations

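A stretch of chromosome 17 (35681567 to 36859398 in GRCm38.p6), chosen after its values were seen, held low values that followed single libraries and not groups. Of 30 genes tested there, 10 (Ddr1, Ier3, Tubb5, Ppp1r10, Abcf1, Gnl1, H2-T22, H2-Bl, H2-T3 and Trim26) had A100-FMT libraries 1 and 3 both under 25% of every other of the 6 libraries. Over all 11337 genes 11 had this pattern. None of the 10 was called, with adjusted p-values in limma of 0.091 to 0.35. Tubb5, a tubulin of dividing cells, was at 0.36 to 3.91 FPKM in 6 libraries of the series and at 29.97 to 125.81 FPKM in the other 17.

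In the defensin cluster of chromosome 8 (21025545 to 21530012), also chosen after its values were seen, Defa21, Defa2, Defa33, Defa42 and Defa32 were each above 100 FPKM in A100-FMT library 3 and below 10 FPKM in the other 5 libraries compared. Defa2 read 0.58, 2.51 and 1.18 FPKM in A10-FMT and 8.27, 0.64 and 488 FPKM in A100-FMT. None was called, and the copies share reads, so their levels are uncertain.

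The largest change among called genes belonged to an entry with no gene name, listed at 0 in the 3 A10-FMT libraries and at 22.9, 33.6 and 8.26 FPKM in A100-FMT (adjusted p = 0.016).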
